A study of Homo sapiens with 6 samples.

Results

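The NDUF genes encode the nuclear subunits of mitochondrial complex I (NADH:ubiquinone oxidoreductase) and the NDUFAF proteins that help to assemble it. All nuclear protein-coding genes with a symbol beginning NDUF were taken, which gave 48 of the 62696 genes in each count table. They lie on 22 chromosomes and were sorted by textbook role into 7 nuclear core subunits, 30 accessory subunits, 8 NDUFAF assembly factors and 3 genes outside these classes. Expression was compared between LINC01638 siRNA and control siRNA in 12Z cells, an established human epithelial line from endometriosis, as part of a study of the long non-coding RNA LINC01638 in that disease.

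Complex I takes electrons from NADH, passes them along a chain of iron-sulfur clusters to ubiquinone, and uses the energy to pump protons across the inner mitochondrial membrane. Its matrix arm holds the NADH-oxidising site and the clusters, and its membrane arm holds the proton pumps, whose core subunits are encoded in the mitochondrial genome. Accessory subunits surround the core and stabilise it. NDUFAF proteins bind intermediates of the growing complex and are absent from the finished enzyme.

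The LINC01638 siRNA group had 3 libraries (A, B and C) of 12Z cells at passage 40, transfected by Lipofectamine RNAiMAX with 1 siRNA against LINC01638 and harvested after 72 h. The control siRNA group had 3 libraries (A, B and C) of the same line and passage, transfected the same way with a commercial control siRNA and harvested after 72 h. All 6 libraries therefore come from siRNA-transfected cells of 1 line, and with 1 siRNA against the target its effects and those of losing LINC01638 cannot be told apart. The labels do not say whether the letters mark separate cultures, so p-values measure no more than the spread between the libraries, and that spread may be technical. Total RNA was depleted of ribosomal RNA and sequenced with a strand-specific kit as 50 bp pairs.

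LINC01638 itself measured 2.29, 1.98 and 2.05 CPM (counts scaled to library size by TMM) in LINC01638 siRNA libraries A, B and C, against 7.64, 7.65 and 7.81 CPM in control siRNA libraries A, B and C, a log2 difference of -1.87 by edgeR (adjusted p = 3.73e-11). The libraries held 45617234 to 58148664 counts assigned to genes. Reads outside annotated exons took 13.2% ± 1.67 of mapped fragments with LINC01638 siRNA and 9.18% ± 0.864 with control siRNA (SD, n = 3 each). By an exact permutation test, two-sided, p was 0.1, the smallest that 3 against 3 can give. The keratins KRT7, KRT8, KRT18 and KRT19 were present in every library, but CDH1, the epithelial cadherin, measured only 3.41 to 3.83 CPM with LINC01638 siRNA and 7.21 to 8.62 CPM with control siRNA. Of 6 epithelial markers, 5 fell and 1 rose with LINC01638 siRNA. The 1 that rose was EPCAM, at means of only 1.38 CPM with LINC01638 siRNA and 0.377 CPM with control siRNA. All 6 stromal markers, VIM and COL1A1 among them, were present and fell, though for PDGFRB the groups overlapped. Of all genes tested by edgeR, 29.6% fell and 26.3% rose at an adjusted p under 0.05. Immune and endothelial markers summed to 3.46 to 4.13 CPM with LINC01638 siRNA and 2.36 to 2.50 CPM with control siRNA, with CD3E at 0 in every library. Of the 3 that could be tested, the endothelial VWF and CDH5 rose and PTPRC did not pass. The part of these marker changes in the NDUF values was not tested, and in bulk RNA fewer cells of a type and less RNA per cell cannot be told apart.

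Promoters of nuclear respiratory-chain genes are known for sites of the activators NRF1, GABP (an ETS-family factor) and YY1. The stretch from 250 bases before to 50 bases after the start was available for 40 of the 48 NDUF genes in RefSeq (GRCh38.p14), and the first window was used for the 6 genes with more than 1. It was searched on both strands for GCGCATGC (NRF1), CCGGAAGT (ETS) and AAGATGGC (YY1). The NRF1 letters stood in 7 of the 40 NDUF windows (17.5%), and in 3.05% of all 35116 gene windows and 5.24% of the 10957 windows of tested protein-coding genes. The YY1 letters stood in 6 of the 40 (15%), against 2.89% and 5.18% of those 2 wider sets, and the ETS letters in 2 of the 40 (5%), against 4.14% and 8.47%. Letters matched in a window are a description and not a bound site. The NRF1 letters were found in 2 of the 9 windows of NDUF genes that rose and in 4 of the 16 windows of those that fell. The YY1 letters were in 1 of the 9 and 4 of the 16. Neither set of letters was therefore restricted to NDUF genes of 1 direction. The whole searched window, from 250 bases before to 50 bases after the start, is shown for 5 genes, with matched letters in capitals. They were chosen to set genes that rose beside genes that fell. A run GCGCATGCGC holds the NRF1 letters on both strands in overlap. NDUFAF5 (chr20:13784778-13785077 on the plus strand) and NDUFA8 (chr9:122159730-122160029 on the minus strand) rose and carry the NRF1 letters. NDUFS7 (chr19:1383657-1383956 on the plus strand), which fell at the edge of the threshold, carries the NRF1 and the YY1 letters. NDUFA6 (chr22:42090723-42091022 on the minus strand) fell and carries the NRF1 and the YY1 letters. NDUFB4 (chr3:120596086-120596385 on the plus strand) had the largest fall of the accessory genes and carries the NRF1 letters.
NDUFAF5: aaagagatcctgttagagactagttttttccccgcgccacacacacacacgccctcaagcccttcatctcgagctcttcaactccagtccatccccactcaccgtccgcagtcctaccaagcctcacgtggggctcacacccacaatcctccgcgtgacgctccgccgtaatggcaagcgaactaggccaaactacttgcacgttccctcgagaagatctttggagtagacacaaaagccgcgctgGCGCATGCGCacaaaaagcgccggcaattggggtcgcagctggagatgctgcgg
NDUFA8: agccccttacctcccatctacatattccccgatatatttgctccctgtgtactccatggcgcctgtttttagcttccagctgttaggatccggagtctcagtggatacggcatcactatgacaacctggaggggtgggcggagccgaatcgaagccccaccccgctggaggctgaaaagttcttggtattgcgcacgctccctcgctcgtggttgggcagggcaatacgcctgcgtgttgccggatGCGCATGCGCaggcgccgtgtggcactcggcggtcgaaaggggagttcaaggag
NDUFS7: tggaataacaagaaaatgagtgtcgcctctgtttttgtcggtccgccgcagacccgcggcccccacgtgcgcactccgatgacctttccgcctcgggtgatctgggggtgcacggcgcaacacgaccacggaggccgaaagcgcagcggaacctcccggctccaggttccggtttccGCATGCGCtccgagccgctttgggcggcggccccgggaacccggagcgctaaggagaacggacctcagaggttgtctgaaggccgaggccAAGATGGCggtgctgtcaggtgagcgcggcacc
NDUFA6: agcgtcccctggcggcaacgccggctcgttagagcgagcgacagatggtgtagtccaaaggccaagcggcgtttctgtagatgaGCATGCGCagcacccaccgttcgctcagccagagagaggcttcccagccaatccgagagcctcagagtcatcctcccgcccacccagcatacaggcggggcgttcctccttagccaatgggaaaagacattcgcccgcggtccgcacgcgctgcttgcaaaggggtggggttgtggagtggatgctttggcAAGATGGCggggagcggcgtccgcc
NDUFB4: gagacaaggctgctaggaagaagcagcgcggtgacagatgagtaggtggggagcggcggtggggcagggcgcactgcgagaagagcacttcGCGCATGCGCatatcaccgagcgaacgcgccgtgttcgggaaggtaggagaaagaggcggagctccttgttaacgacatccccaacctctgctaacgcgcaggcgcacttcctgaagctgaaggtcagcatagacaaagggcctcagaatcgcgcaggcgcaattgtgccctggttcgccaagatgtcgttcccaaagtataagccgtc

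Across the 48 genes, 18 were lower and 11 higher with LINC01638 siRNA, mostly by little. Of the 47 that could be tested, 29 (61.7%) passed an adjusted p of 0.05 in edgeR's quasi-likelihood test with Benjamini-Hochberg adjustment over all genes, beside 56% of all 18569 genes tested. The share that rose was 23.4%, beside 26.3% of all genes and 28.6% of protein-coding genes, and the share that fell was 38.3%, beside 29.6% and 36.3%. The NDUF genes as a whole thus changed about as often as other protein-coding genes in these libraries. The remaining 18 tested genes did not pass, and the read-through gene NDUFC2-KCTD14 had 0 counts in all 6 libraries and was not tested. The 2 groups of libraries did not overlap for 30 of the 47, where 61.5% of all genes did not overlap.

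The NDUF changes were small. Only 3 of the 47 genes tested, NDUFV2 and NDUFA4L2 among them, were called and differed by at least 1.5-fold, while 22.8% of all genes tested were called at that size. The median log2 fold change (LINC01638 siRNA minus control siRNA) was -0.08 over the 47 genes, -0.00 over all genes tested and -0.04 over the protein-coding ones. The 5th and 95th percentiles were -0.52 and 0.50 for NDUF genes, and -0.96 and 0.87 for protein-coding genes. The summed level of the 48 genes was 1874, 1949 and 1867 CPM in LINC01638 siRNA libraries A, B and C, against 2137, 1985 and 1961 CPM in control siRNA libraries A, B and C. On this TMM scale the LINC01638 siRNA libraries were all lower, by the least against control C, and control A stood above the other controls. As a share of all assigned counts, without TMM, the groups overlapped. The share was 0.195%, 0.201% and 0.193% in LINC01638 siRNA libraries A, B and C. In control siRNA libraries A, B and C it was 0.207%, 0.190% and 0.190%. With scaling by library totals alone, 15 NDUF genes were higher and 11 lower, and the median of all genes moved to 0.10 and that of the NDUF genes to 0.02, the same distance of -0.08 between them.

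**Figure D1:**
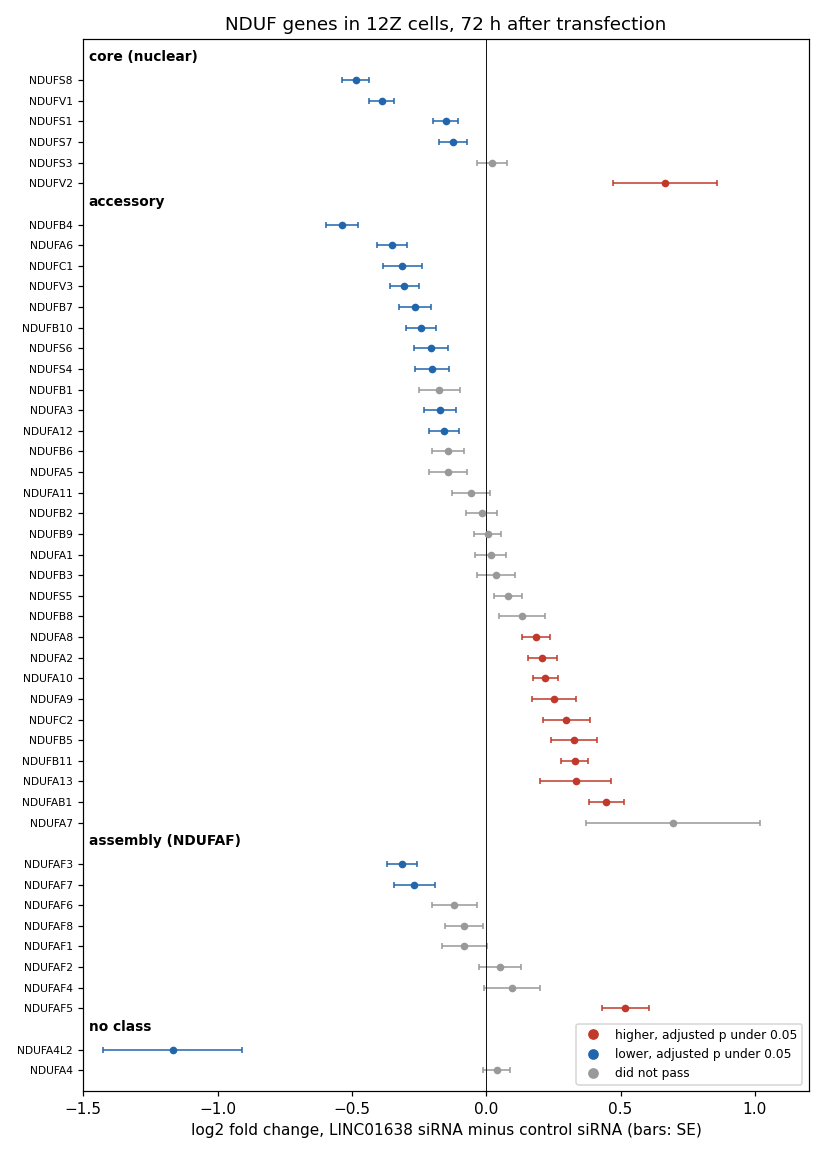
Log2 fold change (x axis, LINC01638 siRNA minus control siRNA) of 46 tested NDUF genes by class, with bars for the standard error and colours for the edgeR call (3 libraries per group). Most points lie within 0.5 of 0, most core genes are blue (lower), and accessory genes are spread to both sides.

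The nuclear core subunits form the catalytic part of the matrix arm, and 5 of the 7 fell while 1 rose and 1 did not pass. The shares were 71.4% lower and 14.3% higher, beside 36.3% and 28.6% of protein-coding genes tested.

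NDUFS8 (chr11:68030617-68036644, plus strand, GRCh38, GENCODE 29) binds iron-sulfur clusters close to the quinone site. It had 67.5, 68.3 and 68.4 CPM in LINC01638 siRNA libraries A, B and C, against 101, 93.6 and 91.3 CPM in control siRNA libraries A, B and C. The LINC01638 siRNA libraries lay within 1 CPM of each other and below all controls (log2 fold change -0.49, SE 0.0501, edgeR adjusted p = 7.95e-08). NDUFV1 (chr11:67605653-67612554, plus strand) holds the flavin that accepts electrons from NADH. Its level was 98.2, 101 and 103 CPM in LINC01638 siRNA libraries A, B and C, against 136, 133 and 127 CPM in control siRNA libraries A, B and C. Every LINC01638 siRNA library was again below every control, with a log2 fold change of -0.39 (standard error 0.0473, edgeR adjusted p = 7.21e-07). NDUFS8 and NDUFV1 passed under all 15 alternative settings.

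Smaller falls were measured for NDUFS1, the large iron-sulfur protein of the NADH-oxidising module, and for NDUFS7, another iron-sulfur subunit at the quinone site. NDUFS1 (chr2:206114817-206159603, minus strand) had 129, 133 and 125 CPM in LINC01638 siRNA libraries A, B and C, against 146, 142 and 141 CPM in control siRNA libraries A, B and C. The groups were separate, but the fold was only 1.11 (log2 fold change -0.15, SE 0.0467, edgeR adjusted p = 0.0100). Its adjusted p was 0.0688 without LINC01638 siRNA library C and 0.394 with library totals alone. NDUFS7 (chr19:1383527-1395589, plus strand) measured 55.2, 58.2 and 58.3 CPM in LINC01638 siRNA libraries A, B and C, against 63.9, 63.9 and 59.2 CPM in control siRNA libraries A, B and C. The groups did not overlap, yet control C was within 1 CPM of the nearest LINC01638 siRNA library. The log2 fold change was -0.12 (SE 0.0520, edgeR adjusted p = 0.0498), and the gene lost its call in 13 of the 15 alternative settings.

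NDUFS3, a subunit on which the quinone module is built, did not pass. Its values were 62.3, 66.0 and 64.5 CPM in LINC01638 siRNA libraries A, B and C, against 68.2, 61.6 and 60.1 CPM in control siRNA libraries A, B and C, and the groups overlapped (log2 fold change 0.02, SE 0.0548, edgeR adjusted p = 0.772). On the same strand 19.6% of its exon bases also belong to PTPMT1, so part of its reads may be counted for neither gene. NDUFV2, the other iron-sulfur partner of NDUFV1, rose, with 1.502, 1.463 and 1.547 CPM in LINC01638 siRNA libraries A, B and C, against 1.05, 0.985 and 0.811 CPM in control siRNA libraries A, B and C. All LINC01638 siRNA libraries were above all controls (log2 fold change 0.67, SE 0.193, edgeR adjusted p = 0.00626). These values rest on only 76 to 93 counts with LINC01638 siRNA and 43 to 56 counts with control siRNA. In GENCODE 29, 28.4% of the exon bases of NDUFV2 (771 of 2711) are shared on the same strand with AP005263.1, so its level and its change are uncertain. All such shares in this report are taken over all annotated exons of a gene. For a single transcript, of 930 bases in NDUFV2, the share can be larger or smaller.

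**Figure D2:**
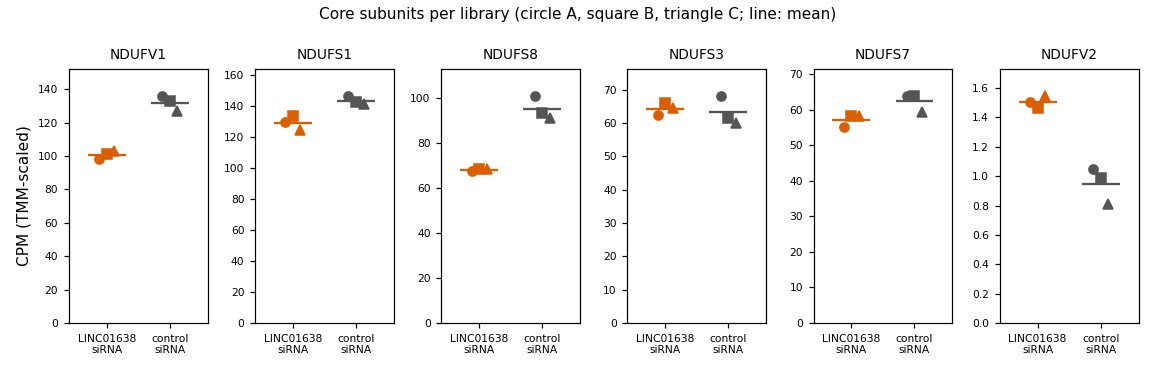
CPM (y axes from 0, scaled by TMM) of 6 nuclear core subunits in each library, LINC01638 siRNA left and control siRNA right, with group means as lines. NDUFS8 and NDUFV1 are lower in all 3 LINC01638 siRNA libraries by a wide gap, NDUFS3 overlaps, and NDUFV2 is higher on a scale of about 1 CPM.

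Accessory subunits went in both directions, 10 lower (33.3%) and 9 higher (30%), with 11 not past the threshold and a median log2 fold change of -0.01. Of protein-coding genes tested, 36.3% were lower and 28.6% higher, so these shares were near the background. NDUFB4, a small membrane-arm subunit (chr3:120596309-120602500, plus strand), fell the most. It measured 47.1, 46.8 and 43.9 CPM in LINC01638 siRNA libraries A, B and C, against 72.3, 64.7 and 62.9 CPM in control siRNA libraries A, B and C. The groups were far apart, with a log2 fold change of -0.54 (standard error 0.0582, edgeR adjusted p = 1.53e-07). NDUFA6, a matrix-arm subunit of the LYR family that contacts the acyl carrier protein, had 39.1, 40.5 and 39.9 CPM in LINC01638 siRNA libraries A, B and C, against 54.7, 49.8 and 48.0 CPM in control siRNA libraries A, B and C. It was lower in every LINC01638 siRNA library (log2 fold change -0.35, SE 0.0571, edgeR adjusted p = 2.76e-05).

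The next falls were in NDUFC1 and NDUFB7 of the membrane arm and in NDUFV3 of the NADH-oxidising module. NDUFV3 had 33.2, 35.7 and 33.7 CPM in LINC01638 siRNA libraries A, B and C, against 42.5, 42.2 and 42.0 CPM in control siRNA libraries A, B and C (log2 fold change -0.30, SE 0.0545, edgeR adjusted p = 8.11e-05). The 3 controls were nearly equal and all above the LINC01638 siRNA libraries. NDUFC1 averaged 22.9 ± 1.61 CPM with LINC01638 siRNA and 28.4 ± 2.40 CPM with control siRNA (SD, n = 3 each, log2 fold change -0.31, edgeR adjusted p = 0.00103), with 18.5% of its exon bases shared with MGARP. NDUFB7, which faces the intermembrane space, averaged 68.3 ± 3.49 CPM with LINC01638 siRNA and 82.1 ± 6.86 CPM with control siRNA (SD, n = 3 each, log2 fold change -0.27, edgeR adjusted p = 0.000774). NDUFB10, its neighbour on that face of the membrane arm, averaged 61.0 ± 3.03 CPM with LINC01638 siRNA and 72.2 ± 4.12 CPM with control siRNA (SD, n = 3 each, log2 fold change -0.24, edgeR adjusted p = 0.000875). All 3 were lower in every LINC01638 siRNA library than in any control.

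NDUFS6 (-0.21), NDUFS4 (-0.20), NDUFA3 (-0.17) and NDUFA12 (-0.16) had the smallest log2 fold changes of the accessory genes that fell, in the same edgeR test. NDUFS4, NDUFS6 and NDUFA12 belong to the NADH-oxidising side of the matrix arm, and NDUFA3 to the membrane arm. These 4 calls were lost without LINC01638 siRNA library C, with adjusted p of 0.0590 to 0.136, and without control siRNA library A, with adjusted p of 0.0643 to 0.141, and also with library totals alone, with adjusted p of 0.166 to 0.432. Without either of these libraries 6 accessory genes were lower, in place of 10.

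Among the accessory genes that rose, NDUFAB1, the mitochondrial acyl carrier protein used in fatty acid synthesis and bound to complex I as a subunit, changed the most. NDUFAB1 (chr16:23581002-23596356, minus strand) measured 39.1, 39.7 and 37.8 CPM in LINC01638 siRNA libraries A, B and C, against 31.3, 28.1 and 26.1 CPM in control siRNA libraries A, B and C. The groups were clearly separate (log2 fold change 0.45, SE 0.0649, edgeR adjusted p = 7.00e-06). NDUFB11, an X-linked membrane-arm subunit (chrX:47142216-47145504, minus strand), had 113, 107 and 108 CPM in LINC01638 siRNA libraries A, B and C, against 93.2, 84.8 and 83.5 CPM in control siRNA libraries A, B and C. All LINC01638 siRNA libraries exceeded all controls (log2 fold change 0.33, SE 0.0516, edgeR adjusted p = 1.79e-05).

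NDUFB5, a membrane-arm subunit, had 22.9, 26.0 and 22.7 CPM in LINC01638 siRNA libraries A, B and C, against 19.6, 16.3 and 21.0 CPM in control siRNA libraries A, B and C. The groups were separate, though control C came near the lowest LINC01638 siRNA library (log2 fold change 0.33, SE 0.0851, edgeR adjusted p = 0.00312). NDUFC2, another membrane-arm subunit, averaged 14.1 ± 1.52 CPM with LINC01638 siRNA and 11.5 ± 0.946 CPM with control siRNA (SD, n = 3 each, log2 fold change 0.30, edgeR adjusted p = 0.00718). NDUFA9, which lies near the quinone channel and binds a nucleotide, averaged 14.1 ± 1.04 CPM with LINC01638 siRNA and 11.8 ± 0.739 CPM with control siRNA (SD, n = 3 each, log2 fold change 0.25, edgeR adjusted p = 0.0122). NDUFC2 and NDUFA9 lost their calls without LINC01638 siRNA library B (adjusted p 0.0554 and 0.0569) and without control siRNA library C (adjusted p 0.0519 and 0.0748). NDUFC2 shares 16.3% of its exon bases with NDUFC2-KCTD14, and NDUFA9 shares 10.6% with 2 clone-named genes.

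NDUFA13, also known as GRIM-19, was at a low level, with 2.84, 3.12 and 3.26 CPM in LINC01638 siRNA libraries A, B and C, against 2.33, 2.47 and 2.53 CPM in control siRNA libraries A, B and C. The groups were separate and the log2 fold change was 0.33 (SE 0.132, edgeR adjusted p = 0.0388), but this call was lost in 9 of the 15 alternative settings, among them leaving out each library except LINC01638 siRNA A. Its exons share 21.0% of their bases with YJEFN3 and AC011448.1 on the same strand. NDUFA10 (0.22), NDUFA2 (0.21) and NDUFA8 (0.19) were the remaining accessory genes that rose, and they passed in all 15 alternative settings.

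Of the 11 accessory genes that did not pass, NDUFA7 had the largest log2 fold change, 0.69, on a very low level. It measured 0.605, 0.616 and 0.566 CPM in LINC01638 siRNA libraries A, B and C, against 0.507, 0.366 and 0.226 CPM in control siRNA libraries A, B and C (SE 0.323, edgeR adjusted p = 0.0747). It passed without control siRNA library A (adjusted p 0.0281) and with library totals alone (0.0421), and 32.3% of its exon bases are shared with AC010323.1. The others ran from -0.17 for NDUFB1 to 0.13 for NDUFB8 in log2 fold change. NDUFS5, an intermembrane-space subunit, and NDUFB9, a membrane-arm subunit, were among them at 0.08 and 0.01. NDUFS5 and NDUFB8 passed without control siRNA library A (adjusted p 0.0428 and 0.0475). NDUFB8 shares 33.8% of its exon bases with AL133352.1 on the same strand. NDUFB6 passed without LINC01638 siRNA library B (0.0398) or control siRNA library B (0.0134), NDUFB1 without LINC01638 siRNA library A (0.0457) or control siRNA library C (0.0419), and NDUFA5 without control siRNA library B (0.00868).

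The NDUFAF factors were the class with the smallest share called, 37.5%, with 2 lower (25%) and 1 higher (12.5%) of 8. Of protein-coding genes tested, 36.3% were lower and 28.6% higher. NDUFAF5, which hydroxylates an arginine of NDUFS7 during assembly (chr20:13784950-13821582, plus strand), rose. It had 13.1, 14.0 and 13.2 CPM in LINC01638 siRNA libraries A, B and C, against 10.3, 8.20 and 9.50 CPM in control siRNA libraries A, B and C. The groups were well apart, with a log2 fold change of 0.52 (standard error 0.0873, edgeR adjusted p = 4.13e-05). NDUFAF8, the partner that stabilises NDUFAF5, did not pass, with 21.7 ± 1.42 CPM with LINC01638 siRNA and 22.9 ± 1.45 CPM with control siRNA (SD, n = 3 each, log2 fold change -0.08, edgeR adjusted p = 0.333).

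NDUFAF3, which binds an early intermediate of the matrix arm together with NDUFAF4, fell (chr3:49020459-49023495, plus strand). Its values were 30.2, 29.9 and 29.7 CPM in LINC01638 siRNA libraries A, B and C, against 38.5, 37.7 and 35.4 CPM in control siRNA libraries A, B and C. The LINC01638 siRNA libraries were nearly equal and all below the controls (log2 fold change -0.31, SE 0.0568, edgeR adjusted p = 9.14e-05). NDUFAF4 did not pass, at 7.68 ± 0.777 CPM with LINC01638 siRNA and 7.15 ± 0.805 CPM with control siRNA (SD, n = 3 each, log2 fold change 0.10, edgeR adjusted p = 0.452). NDUFAF7, an arginine methyltransferase of the mitochondrial matrix, measured 14.3, 15.3 and 13.3 CPM in LINC01638 siRNA libraries A, B and C, against 17.7, 16.1 and 17.9 CPM in control siRNA libraries A, B and C. The groups were separate and the fall passed (log2 fold change -0.27, SE 0.0757, edgeR adjusted p = 0.00521), but not with library totals alone (adjusted p 0.0700).

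The remaining factors did not pass. NDUFAF1, a member of the membrane-bound assembly complex that also holds ECSIT and ACAD9, had a log2 fold change of -0.08 (standard error 0.0850, edgeR adjusted p = 0.437), and NDUFAF2, a late-acting paralogue of the subunit NDUFA12, had 0.05 (SE 0.0773, edgeR adjusted p = 0.594). NDUFAF6 had -0.12 (SE 0.0838, edgeR adjusted p = 0.242). In all 3 the groups overlapped.

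Of the genes outside these classes, NDUFA4L2, a paralogue of NDUFA4 known as a hypoxia-responsive gene, had the largest change in the family and was barely expressed. It measured 0.623, 0.404 and 0.882 CPM in LINC01638 siRNA libraries A, B and C, against 1.71, 1.10 and 1.51 CPM in control siRNA libraries A, B and C. All LINC01638 siRNA libraries were below all controls, on 21 to 53 counts against 48 to 91 (log2 fold change -1.17, SE 0.259, edgeR adjusted p = 0.000718). NDUFA4, now assigned to complex IV, did not pass, at 77.8 ± 2.77 CPM with LINC01638 siRNA and 75.7 ± 3.34 CPM with control siRNA (SD, n = 3 each, log2 fold change 0.04, edgeR adjusted p = 0.531).

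The subunits were also grouped by the arm they belong to, leaving out NDUFAB1, which sits in both. In the matrix arm 10 of 16 subunits fell (62.5%) and 3 rose (18.8%), and in the membrane arm 5 of 20 fell (25%) and 6 rose (30%). Of all protein-coding genes tested, 36.3% fell and 28.6% rose, so the shares of the membrane arm were near the background. The median log2 fold change was -0.15 in the matrix arm and 0.01 in the membrane arm. The 9 accessory subunits of the matrix arm, without the core, had 5 lower, 2 higher and a median of -0.16. Without LINC01638 siRNA library C the matrix arm had 5 lower subunits, without control siRNA library A it had 6, and with library totals alone it had 5. Its accessory subunits alone had only 2 lower in each of these settings.

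A ratio of 2 sums within a library does not depend on how libraries are scaled. The counts of matrix-arm over membrane-arm subunits were 0.839, 0.847 and 0.846 in LINC01638 siRNA libraries A, B and C, against 0.971, 0.996 and 0.991 in control siRNA libraries A, B and C. The LINC01638 siRNA libraries lay together and below all controls, with means of 0.844 ± 0.00431 and 0.986 ± 0.0134 (SD, n = 3 each). Without the core subunits, the matrix-arm accessory genes over the membrane arm gave 0.319, 0.325 and 0.316 in LINC01638 siRNA libraries A, B and C, against 0.348, 0.346 and 0.351 in control siRNA libraries A, B and C. That gap was narrower and still without overlap. Core over accessory counts were 0.382, 0.382 and 0.390 in LINC01638 siRNA libraries A, B and C, against 0.451, 0.472 and 0.463 in control siRNA libraries A, B and C. Assembly factors over accessory counts were 0.0998, 0.102 and 0.0985 in LINC01638 siRNA libraries A, B and C, against 0.103, 0.103 and 0.108 in control siRNA libraries A, B and C. These did not overlap but lay close together. The sums weigh highly counted genes most, and these classes share the genes already described, so the ratios carry no p-value.

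**Figure D3:**
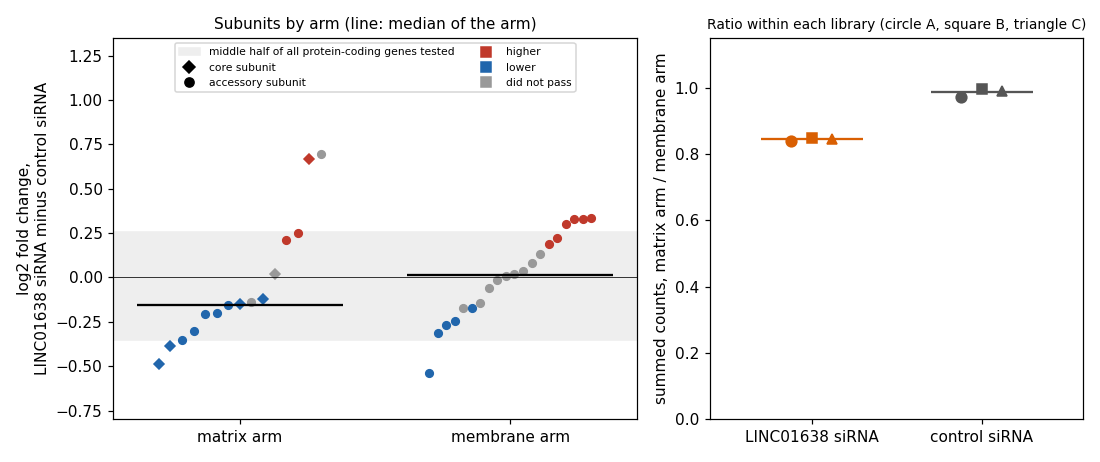
Left, log2 fold change (y axis) of the subunits reported here by arm, with diamonds for core, circles for accessory subunits, lines for medians over all subunits of the arm and a grey band from the 25th to the 75th percentile of protein-coding genes. Right, summed counts of the matrix arm over those of the membrane arm in each library (y axis from 0), at 0.839 to 0.847 with LINC01638 siRNA and 0.971 to 0.996 with control siRNA.

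Levels were compared between genes as CPM per kilobase of transcript, from the median length of the best-ranked transcripts in GENCODE 29. On this scale the highest core subunit was NDUFS8, at 86.1 with LINC01638 siRNA and 120 with control siRNA, and the lowest was NDUFV2, at 1.62 with LINC01638 siRNA and 1.02 with control siRNA. The accessory genes ran from NDUFS5, at 172 with LINC01638 siRNA and 162 with control siRNA, down to NDUFA7, at 0.991 with LINC01638 siRNA and 0.610 with control siRNA. The assembly factors ran from NDUFAF8, at 35.2 with LINC01638 siRNA and 37.2 with control siRNA, to NDUFAF5, at 2.43 with LINC01638 siRNA and 1.69 with control siRNA. NDUFA9, at 1.68 with LINC01638 siRNA and 1.41 with control siRNA, and NDUFA13, at 3.10 with LINC01638 siRNA and 2.46 with control siRNA, were the other subunits near the bottom of the scale. For NDUFA9 this scale divides by a transcript length of 8363 bases, from means of 14.1 CPM with LINC01638 siRNA and 11.8 CPM with control siRNA. NDUFV2, NDUFA7, NDUFA9 and NDUFA13 are all among the 14 NDUF genes whose exons share bases with another gene on the same strand. So are NDUFS8, the highest core subunit on this scale, NDUFV1, NDUFS1 and NDUFS3, while NDUFAF5, the lowest assembly factor, shares none. The part of such sharing in these levels was not tested. Of the 34 genes with no such sharing, 14 fell and 7 rose, with a median log2 fold change of -0.12. Of protein-coding genes tested, 36.3% fell and 28.6% rose, with a median of -0.04.

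The 7 core subunits encoded in the mitochondrial genome (the MT-ND genes) form the proton-pumping part of the membrane arm, and 1 of the 7, MT-ND4, fell. It measured 1497, 1861 and 2167 CPM in LINC01638 siRNA libraries A, B and C, against 2700, 2219 and 2430 CPM in control siRNA libraries A, B and C. The groups did not overlap, but LINC01638 siRNA library C came close to control B (log2 fold change -0.41, SE 0.132, edgeR adjusted p = 0.0286). The call was lost without LINC01638 siRNA library B (adjusted p 0.0512), without control siRNA library A (0.236), without control siRNA library C (0.0545), with library totals alone (0.0714) and with no low-count filter (0.210). MT-ND6, encoded on the other mitochondrial strand, had a log2 fold change of 0.33 (standard error 0.142, edgeR adjusted p = 0.0907), but it passed in 8 of the 15 alternative settings. These were the fits without LINC01638 siRNA library A (adjusted p 0.0115) or control siRNA library A (0.0146), with limma-voom (0.00872), library totals alone (0.0376), no low-count filter (0.00206), a stricter one (0.0366), protein-coding genes only (0.0341) and the replicate letter as a block (0.0445). The other 5 did not pass either, with log2 fold changes from -0.32 for MT-ND4L to 0.16 for MT-ND5. MT-ND4L passed without LINC01638 siRNA library A or C and with limma-voom (adjusted p 0.00755), and MT-ND5 without LINC01638 siRNA library A. MT-ND3 passed without LINC01638 siRNA library B or control siRNA library B. Further settings in which MT-ND3 passed were limma-voom (adjusted p 0.0374), no low-count filter (0.00451), the replicate letter as a block (0.0486) and counts taken without regard to strand (0.0299). LINC01638 siRNA library A held the lowest share of counts from the mitochondrial genome, 1.14%, and the highest share of reads outside exons, 15.1%, and the part of either in these values was not tested.

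Of 11 assembly factors not named NDUFAF, 4 fell (36.4%) and 2 rose (18.2%), beside 36.3% and 28.6% of protein-coding genes. TIMMDC1, a membrane protein needed to build the membrane arm, had 32.8, 35.5 and 32.9 CPM in LINC01638 siRNA libraries A, B and C, against 50.5, 46.0 and 44.9 CPM in control siRNA libraries A, B and C. It was the furthest from overlap of the list (log2 fold change -0.48, SE 0.0597, edgeR adjusted p = 8.97e-07). TMEM126A also fell (-0.37, SE 0.0773, edgeR adjusted p = 0.000358). Its paralogue TMEM126B, a member of the complex with NDUFAF1, rose by 0.37 (SE 0.0700, edgeR adjusted p = 0.000130). DMAC2 rose by 0.13 (SE 0.0522, edgeR adjusted p = 0.0416), a call lost without any 1 library other than control siRNA A (adjusted p 0.0517 to 0.223), and ACAD9 and ECSIT did not pass, at -0.09 and 0.00. In the list of 15 genes for iron-sulfur cluster assembly, 4 of the 14 tested rose (28.6%) and 5 fell (35.7%). These shares were near those of protein-coding genes, 28.6% and 36.3%. The lowest p-values were those of FDXR (0.77) and IBA57 (0.47) among those that rose and BOLA1 (-0.83) and ISCA2 (-0.41) among those that fell, in the same edgeR test.

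Of 13 regulators of mitochondrial genes, 7 rose (53.8%) and 2 fell (15.4%), beside 28.6% and 36.3% of protein-coding genes. TFAM, which packages mitochondrial DNA and helps to start its transcription, had 112, 118 and 115 CPM in LINC01638 siRNA libraries A, B and C, against 78.8, 67.5 and 76.4 CPM in control siRNA libraries A, B and C. The gap between the groups was wide (log2 fold change 0.63, SE 0.0554, edgeR adjusted p = 8.13e-09). GABPA, the DNA-binding subunit of GABP, had 55.3, 56.8 and 57.1 CPM in LINC01638 siRNA libraries A, B and C, against 33.1, 30.9 and 35.6 CPM in control siRNA libraries A, B and C (log2 fold change 0.76, SE 0.0578, edgeR adjusted p = 1.10e-09). GABPB1, its partner, rose by 0.35, the mitochondrial transcription factor TFB2M by 0.65, the coactivator PPRC1 by 0.19 and YY1 by 0.14. NRF1 did not pass, at 25.1, 24.7 and 25.4 CPM in LINC01638 siRNA libraries A, B and C, against 24.98, 21.9 and 23.5 CPM in control siRNA libraries A, B and C (log2 fold change 0.09, SE 0.0647, edgeR adjusted p = 0.233), though it did with library totals alone (adjusted p 0.0162). YY1 lost its call without LINC01638 siRNA library A (adjusted p 0.0793), with no low-count filter (0.0545) and with counts taken without regard to strand (0.119).

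Both lower regulators act on mitochondrial RNA. TFB1M, which methylates mitochondrial ribosomal RNA, had 8.68, 7.56 and 6.15 CPM in LINC01638 siRNA libraries A, B and C, against 16.9, 16.1 and 15.3 CPM in control siRNA libraries A, B and C. POLRMT, the mitochondrial RNA polymerase, had 45.6, 48.2 and 48.6 CPM in LINC01638 siRNA libraries A, B and C, against 64.7, 66.7 and 66.7 CPM in control siRNA libraries A, B and C. Neither overlapped between groups, with log2 fold changes of -1.11 for TFB1M (standard error 0.101, edgeR adjusted p = 1.97e-08) and -0.48 for POLRMT (SE 0.0505, edgeR adjusted p = 1.15e-07). PPARGC1A, a coactivator of mitochondrial gene expression, had few counts and rose, with 53, 52 and 85 counts in LINC01638 siRNA libraries A, B and C, against 3, 11 and 6 counts in control siRNA libraries A, B and C (log2 fold change 3.05, SE 0.381, edgeR adjusted p = 1.04e-06). GABPB2, ESRRA and PPARGC1B did not pass, at -0.03, 0.00 and -0.12.

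**Figure D4:**
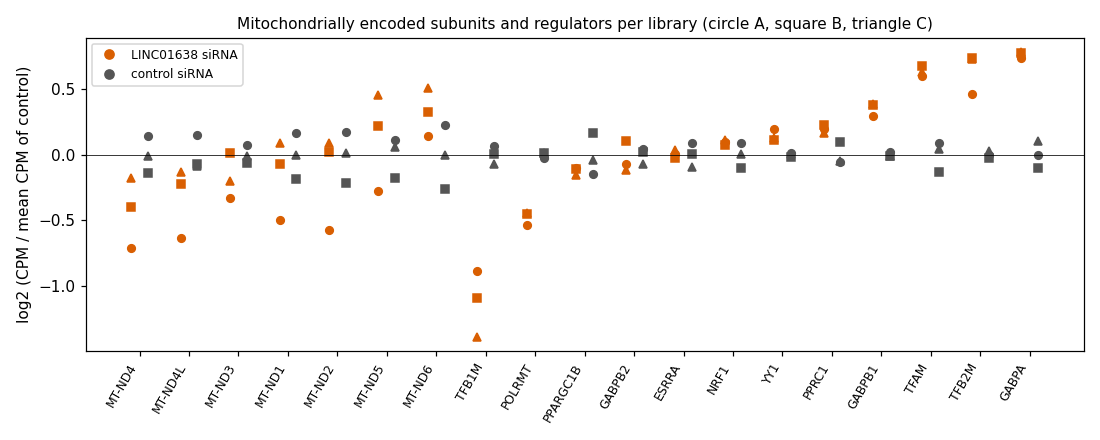
Level in each library relative to the control siRNA mean (y axis, log2), for the 7 mitochondrially encoded subunits and 12 regulators without PPARGC1A, LINC01638 siRNA in orange to the left of control siRNA in grey. TFAM, TFB2M and GABPA lie above 0 and TFB1M and POLRMT below 0 in all LINC01638 siRNA libraries, while library A stands lowest for the mitochondrially encoded genes MT-ND1, MT-ND2 and MT-ND4.

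Of 41 nuclear subunits of complexes II to V, a list that also holds NDUFA4, 16 (39.0%) were lower and 6 (14.6%) higher, beside 36.3% and 28.6% of protein-coding genes, with a median log2 fold change of -0.08. The iron-sulfur subunit of complex II, SDHB, fell by 1.17 on the log2 scale (SE 0.0616, edgeR adjusted p = 7.63e-12), with 29.5, 33.0 and 28.4 CPM in LINC01638 siRNA libraries A, B and C, against 70.7, 69.7 and 64.4 CPM in control siRNA libraries A, B and C. No core or accessory NDUF gene fell as far. SDHD, its membrane anchor, rose by 0.35. In complex III, UQCRFS1, the Rieske iron-sulfur protein, had a log2 fold change of -0.42, UQCRC1 had -0.37 and UQCRC2, another core protein, had 0.32, and each passed. Complex III had 4 lower and 1 higher of 9, complex IV 2 and 2 of 11, and complex V 9 lower and 2 higher of 17. COX5B (-0.38) and COX8A (-0.19) fell and COX6C (0.27) and COX7B (0.21) rose in complex IV, and ATP5PF (-0.72) and ATP5MC1 (-0.50) fell and ATP5MG (0.46) and ATP5PB (0.13) rose in complex V. ATP5PB lost its call without LINC01638 siRNA library B or C or control siRNA library B or C (adjusted p 0.0956 to 0.130), and COX8A with library totals alone (adjusted p 0.179). All comparisons here use the same 6 libraries, so the lists are not independent of each other, and no difference between lists was tested.

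**Figure D5:**
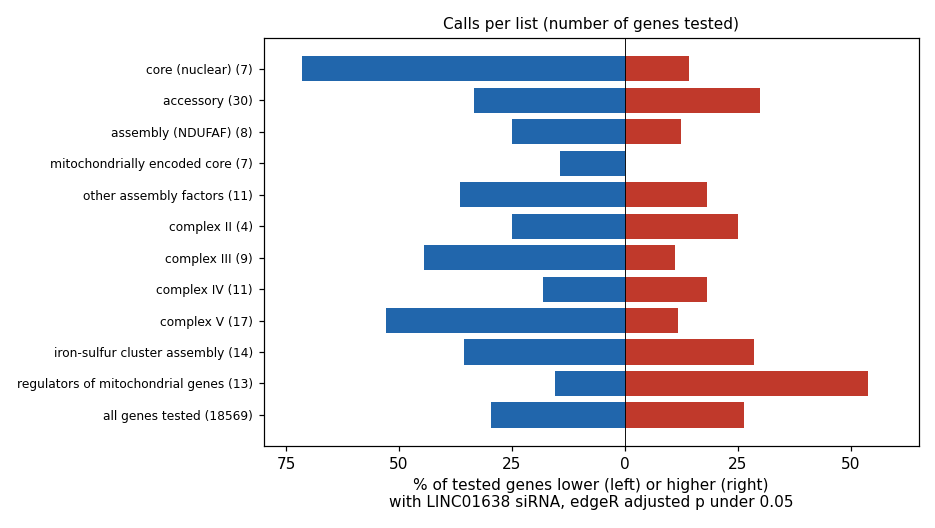
Percent of the tested genes in each list that were lower (left of 0) or higher (right of 0) with LINC01638 siRNA at an edgeR adjusted p under 0.05, with the number tested in parentheses. The nuclear core has the largest share lower, 71.4%, on only 7 genes, and the regulators the largest share higher, 53.8% of 13, beside 29.6% lower and 26.3% higher of all genes.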

How the data were processed

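Total RNA from 6 libraries was analysed, 3 per siRNA, grouped by the sample labels. The deposited counts are whole numbers per gene, mapped and counted by the authors with STAR 2.7.10b on GRCh38 (hg38), with R 4.2.1 also named, per the submitters' processing notes. For the annotation release and trimming, nothing is given in the sources used here. The reverse-strand column was used, as the kit is directional. The 4 entries that name no gene stayed out: unmapped (13.0% ± 0.0422 of fragments with LINC01638 siRNA and 12.3% ± 0.351 with control siRNA), outside exons (given with the libraries' depth), ambiguous (7.17% ± 0.163 and 7.49% ± 0.243 of mapped fragments) and multimapping, listed as 0, so reads with several equal matches were not counted.

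Symbols were matched for 61918 identifiers exactly and 754 without the version. Gene class, positions and lengths are from GENCODE 29, which holds 58269 of them, while the release behind the counts is unknown. All genes were filtered with filterByExpr (minimum count 10, minimum total 15), scaled by TMM and compared with edgeR 4.0.16 (robust quasi-likelihood F test, group as the only term) in R 4.3.3, with Benjamini-Hochberg adjustment over the 18569 genes tested and a threshold of 0.05. The common biological coefficient of variation was 5.62%. CPM are TMM-scaled. The test was also tried on data simulated from these counts, with far fewer genes changed than the 10390 called here. That trial therefore does not check the scaling under changes this wide. The members and lists were chosen with earlier results of these data known, so no set test was made. Named in full are all core, NDUFAF and unclassed genes, the 6 largest accessory changes in each direction, the regulators, and up to 2 genes per direction of each other list. A core gene counted in the totals is not reported here. Genes named beyond these, such as NDUFA7 and NDUFA10, were chosen after their values were seen. Alternatives used DESeq2 1.42.0, limma 3.58.1, other scalings and filters, the unstranded column and leaving out each library.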

Additional observations from a re-analysis of the deposited data

Results flagged for a closer look

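The NDUF symbols also cover 67 genes that are not protein-coding (pseudogenes, antisense and divergent transcripts), which the comparisons do not use. Their summed level was 5.35, 4.35 and 4.36 CPM in LINC01638 siRNA libraries A, B and C, against 3.21, 4.01 and 4.28 CPM in control siRNA libraries A, B and C. The mean of 4.69 ± 0.575 CPM with LINC01638 siRNA was above the 3.83 ± 0.556 CPM with control siRNA (SD, n = 3 each). By an exact permutation test, two-sided, p was 0.1, the smallest possible, and the lowest LINC01638 siRNA library was within 0.1 CPM of the highest control. Of the 6 that could be tested, NDUFB2-AS1, antisense to NDUFB2, rose (log2 fold change 0.80, edgeR adjusted p = 0.00627), with 1.39, 1.06 and 1.11 CPM in LINC01638 siRNA libraries A, B and C, against 0.713, 0.801 and 0.547 CPM in control siRNA libraries A, B and C. The other 5 did not pass.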

How the results depend on the processing

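Of the 29 NDUF calls, 19 (8 higher, 11 lower) held in all 15 alternative settings, and no NDUF call changed sign. With library totals alone, 11 NDUF genes were lower (median log2 fold change 0.020), as were 6 accessory genes, 1 assembly factor and 3 core genes, and 12 subunits of complexes II to V were higher. That setting lifted the median of all genes to 0.10, with 6349 genes higher and 4288 lower, against 4887 and 5503 with TMM. Restricting the count to genes without same-strand sharing, an alternative chosen after seeing the data, left 7 higher and 14 lower of 34. Of protein-coding genes tested, 28.6% were higher and 36.3% lower. Leaving out 1 library gave 8 to 13 NDUF genes higher and 12 to 19 lower, a median of -0.13 to -0.022 (smallest in size without control siRNA A), 6 to 12 accessory genes lower and 3 to 5 core genes lower, with the fewest core genes without LINC01638 siRNA C. The cause of these shifts was not tested.

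The letters A, B and C gave no sign of pairing the libraries: same-letter deviations correlated at -0.0753, -0.0203 and -0.0177. Deviations of libraries with different letters correlated at -0.0317 to 0.0512. With 3 libraries per group this cannot exclude a shared culture or day behind a letter. With the letter as a replicate block, 10 NDUF genes were higher and 17 lower (median -0.08), and NDUFA13 and NDUFS7 lost their calls. LINC01638 kept its fall in all settings run, but was not fitted with protein-coding genes only. Genes under 2 CPM (NDUFV2, NDUFA7, NDUFA4L2) rest on few counts and have the widest standard errors of the family.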

Other observations

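The count column for the opposite strand, which a directional library should leave nearly empty, held 72.4 ± 2.61 CPM over the NDUF genes with LINC01638 siRNA and 93.6 ± 2.83 CPM with control siRNA (SD, n = 3 each). Most of the gap came from NDUFB9, with 16.1, 21.4 and 15.4 CPM in LINC01638 siRNA libraries A, B and C, against 37.2, 39.7 and 41.2 CPM in control siRNA libraries A, B and C. In GENCODE 29 its exons share 864 bases with MTSS1 and TATDN1 on the other strand. In the edgeR test MTSS1, a regulator of actin at membranes, fell by 1.09 on the log2 scale (adjusted p = 0.00133), with a mean of 38.5 CPM with LINC01638 siRNA and 81.7 CPM with control siRNA, and TATDN1 fell by 0.32 (adjusted p = 0.0111). On its own strand NDUFB9 did not pass, with 84.0, 86.4 and 81.0 CPM in LINC01638 siRNA libraries A, B and C, against 87.8, 81.1 and 81.3 CPM in control siRNA libraries A, B and C.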
